A study of Mus musculus with 2 samples.

Results

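Insulin, insulin-like growth factor (IGF) and mTOR signalling genes were examined for differences in DNA methylation between PDGFRα+ and CD137+ adipose progenitors of the mouse. The set holds 37 genes, chosen for their place in the pathway with earlier results of these data known. A region was counted for a gene when it overlapped the gene body or the 5 kb on either side of it. Of the 34139 differentially methylated regions that the authors deposited, 91 met this rule, and 26 of the 37 genes had at least 1. Bisulfite sequencing of genomic DNA, in which unmethylated cytosine is converted and methylated cytosine is not, gave 1 library of PDGFRα+ cells and 1 library of CD137+ cells. Both came from C57BL/6 adipose tissue, were sorted with magnetic beads, grown, exposed to an adipogenic cocktail and treated with dexamethasone (DEX), a synthetic glucocorticoid. PDGFRα is a receptor carried by adipose progenitors, and CD137 is a surface protein used as a marker of beige adipocyte precursors. The labels allow for subcutaneous or visceral fat and do not say which was used for either library, nor how many animals were pooled. Both libraries had DEX and none without it was compared, so it is unknown whether the differences are also present without DEX.

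Each region in the list has a position and a signed score with no unit, and the score is the authors' own. The list does not define its sign. Its title names the PDGFRα+ sample before the CD137+ sample, and if the score follows that order, a negative value stands for lower methylation in PDGFRα+ cells and a positive value for higher methylation in PDGFRα+ cells. Methylation levels per library and read depth are unknown. Each group has a single library, so the spread between replicates is unknown and no test was run. A gene without a region is one for which none was listed, which is not a measurement of equal methylation. Nor could the cell labels be checked against expression. Of marker genes for cells that such a sort or culture could hold, 5 of 5 endothelial, 5 of 5 mural, 3 of 5 mesothelial, 4 of 5 adipocyte and 1 of 6 blood cell markers had a region. Over all protein-coding genes the share was 35.1%, and the medians of length of these marker groups were 61.1, 40.3, 25.6, 11.4 and 18.2 kb in the same order; longer genes hold regions more often. The part of such cells in the results below was not tested.

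Insulin and IGF-1 act on related receptor tyrosine kinases, which phosphorylate the insulin receptor substrates (IRS). These recruit phosphoinositide 3-kinase (PI3K), a dimer of a catalytic and a regulatory subunit, whose lipid product activates AKT through PDK1. AKT releases the glucose transporter GLUT4 to the fat cell surface and relieves the block that the TSC complex places on RHEB and thereby on mTOR complex 1, a driver of protein and lipid synthesis. In fat, this pathway is needed for preadipocytes to become adipocytes and for adipocytes to take up glucose. Cytosine methylation at a promoter is often, but not always, associated with low activity of that promoter.

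Of the 46 listed transcript start windows of these genes 2 (4.35%) held a region, against 0.903% of the 21263 windows of all protein-coding genes. Both encode PI3K subunits and both regions had a negative score. Their sequences are shown because the regions lie over the places where transcription begins. Each window runs from 250 bases before to 50 bases after the start and was taken from RefSeq (GRCm38.p6, the assembly that mm10 names) on the minus strand. Capitals mark the CG dinucleotides, the sites of methylation, that lie inside the authors' region. The windows are chr9:99140162-99140461 for Pik3cb and chr13:101692581-101692880 for Pik3r1.
Pik3cb: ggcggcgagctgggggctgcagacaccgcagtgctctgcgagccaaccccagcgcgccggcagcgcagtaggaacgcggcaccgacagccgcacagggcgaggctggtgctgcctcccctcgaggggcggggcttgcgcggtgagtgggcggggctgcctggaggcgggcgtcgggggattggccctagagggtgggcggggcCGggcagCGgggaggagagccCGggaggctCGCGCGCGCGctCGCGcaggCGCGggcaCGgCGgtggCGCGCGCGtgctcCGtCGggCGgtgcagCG
Pik3r1: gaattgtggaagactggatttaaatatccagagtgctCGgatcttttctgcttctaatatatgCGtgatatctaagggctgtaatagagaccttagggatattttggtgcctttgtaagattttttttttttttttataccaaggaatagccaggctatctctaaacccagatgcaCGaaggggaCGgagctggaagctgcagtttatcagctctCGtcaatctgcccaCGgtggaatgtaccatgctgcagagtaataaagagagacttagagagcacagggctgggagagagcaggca

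The window of Pik3cb, which encodes the PI3K catalytic subunit p110β, was rich in CG. It held 44 CG dinucleotides and was 79% G and C, where the median window of all protein-coding genes held 13 CG. The region of 149 bp (chr9:99140115-99140263) ran from 52 bases before the start to 96 bases after it. It covered the last 102 bases of the window and 22 of its CG dinucleotides. Its score was -278. A second annotated gene, Gm2773, overlaps the same region, so the region cannot be assigned to Pik3cb alone.

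The window of Pik3r1 held fewer CG dinucleotides than the median window. It belongs to the second of 2 listed starts, 75.6 kb inside the gene. Pik3r1 encodes the regulatory subunit p85α from its full-length transcript, and shorter regulatory subunits from starts inside the gene. The window had 6 CG (the quartiles over all windows are 4 and 24), was 43.7% G and C, and lay whole within a region of 753 bp with a score of -308 (chr13:101692163-101692915). A search of both strands for GGAATG, the core bound by TEAD factors, for TGTTCT, a hexamer bound by the glucocorticoid receptor, and for TGTTTAC, bound by the FOXO factors that AKT inhibits, found GGAATG in the Pik3r1 window and none of the others in either window. TGTTCT and TGTTTAC share their leading TGTT. In the order given, the motifs occur in 13.6%, 16.2% and 3.01% of all protein-coding start windows, so a match to GGAATG is common.

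Across the set, 70.3% of genes (26 of 37) had a region, where 35.1% of all 21887 protein-coding genes did. The genes of the set are longer, with a median of 50.2 kb against 17.2 kb, and longer genes hold more regions. Among genes under 25 kb, 6 of 11 members had a region, against 19.2% of all protein-coding genes of that length. From 25 to 50 kb it was 4 of 7, against 40.9%, and from 50 to 100 kb 7 of 10, against 60.7%. All 7 members of 100 to 200 kb and both members of 200 kb or more had a region, as did 81.0% and 93.9% of all genes of these lengths. The share was thus higher in each length class, by the most in the shortest, where it rests on 11 genes. Because the genes were chosen with earlier results of these data known, these shares are descriptions only. Per length, the set had 29.9 regions per Mb of gene and flanks, against 16.2 for all protein-coding genes.

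**Figure D1:**
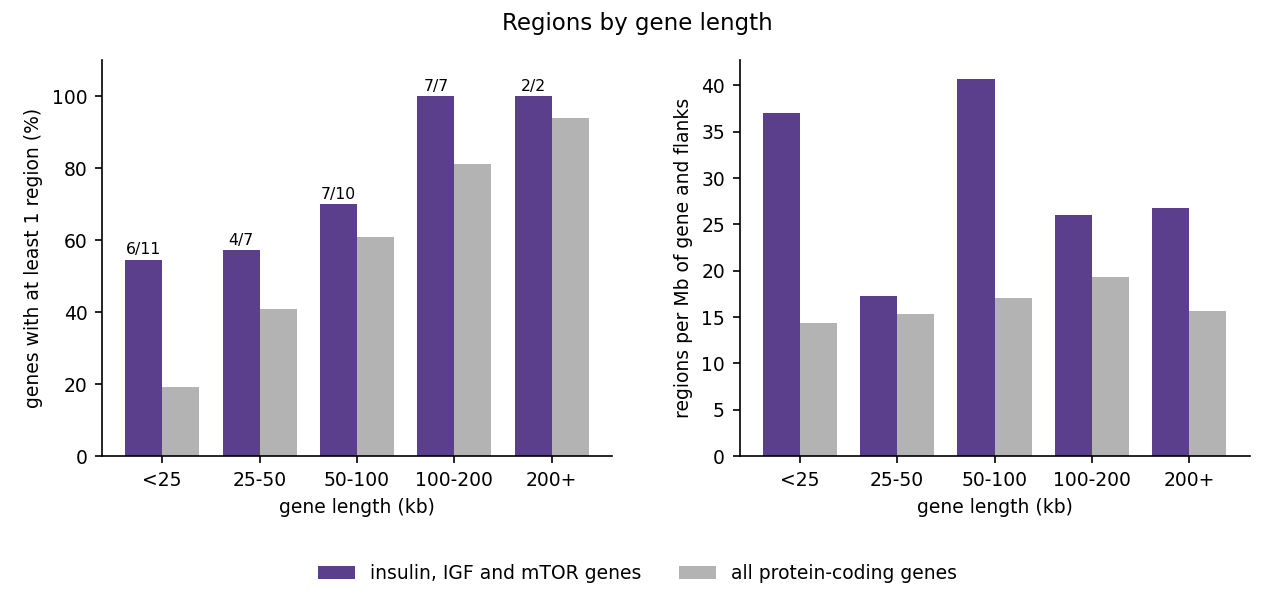
Left, the percentage of genes with at least 1 region, by gene length in kb, for the 37 insulin, IGF and mTOR genes (purple, with counts) and all protein-coding genes (grey). Right, regions per Mb of gene plus 5 kb on both sides in the same classes. The gap was widest from 50 to 100 kb, where the set had 40.7 per Mb and all genes 17.0. It was narrowest from 25 to 50 kb (17.3 and 15.3).

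Signs in the set were mixed. Of the 91 regions 62 were negative and 29 positive, or 68.1% negative (95% exact Clopper-Pearson interval 57.5 to 77.5, which covers the counting of regions only), where the whole list is 67.4% negative. The set as a whole was therefore near the background in sign. Among the 26 genes, 7 had only negative regions, 3 had only positive regions and 16 had both. Regions were of ordinary size, with a median width of 113 bp against 112 bp in the whole list and a median absolute score of 46.5 against 49.4. An absolute score of 100 or more was found in 15 regions of 8 genes, where 10.8% of all protein-coding genes have such a region. Of these 15, 9 were negative, against 67.2% negative among all regions of that size.

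**Figure D2:**
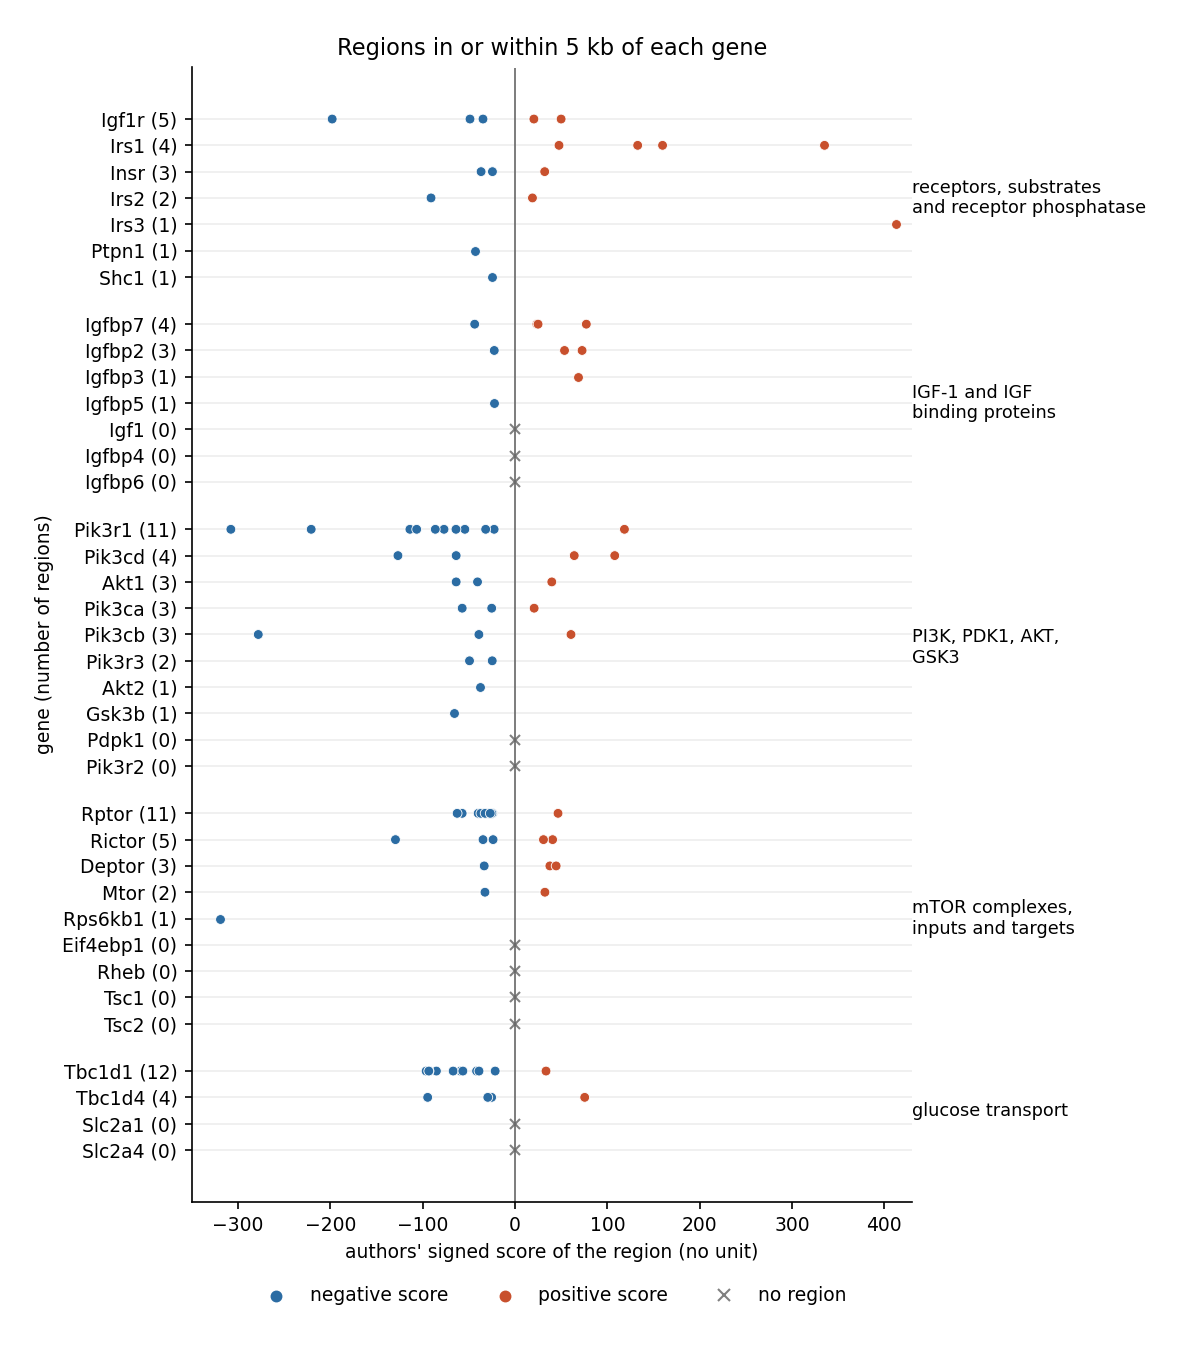
Each point is 1 region, placed by the authors' signed score (no unit) in the row of its gene, with genes grouped by role and the number of regions in brackets; crosses mark genes with none. Scores run from -319 at Rps6kb1 to 412 at Irs3, and Pik3r1, Rptor and Tbc1d1 have the longest rows of negative points.

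By role class, the share of negative regions lay on both sides of the 67.4% of the whole list. The PI3K and AKT genes had 22 of 28 negative (78.6%, exact interval 59.0 to 91.7), the mTOR genes 16 of 22 (72.7%, 49.8 to 89.3) and the glucose transport genes 14 of 16 (87.5%, 61.7 to 98.4). The receptors, their substrates and the phosphatase PTP1B had 8 of 17 negative (47.1%, 23.0 to 72.2), and IGF-1 with the IGF binding proteins had 2 of 8 (25%, 3.19 to 65.1). These intervals treat regions as independent, although many lie in the same gene, and the difference between classes was not tested. The intervals of 4 classes include 67.4%, and that of IGF-1 with the binding proteins, on 8 regions, ends below it. In each of the 3 classes above 67.4%, the gene with most regions was also left out. Without Pik3r1 the PI3K and AKT genes had 12 of 17 negative, without Rptor the mTOR genes had 6 of 11, and without Tbc1d1 the glucose transport genes had 3 of 4.

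All 7 receptor and substrate genes had a region, against 35.1% of all protein-coding genes. Their median length is 48.6 kb, and 40.9% of protein-coding genes from 25 to 50 kb have a region. The large scores of this class were mainly positive. Irs3, an insulin receptor substrate expressed in rodent fat cells and lost as a working gene in humans, had the highest score of the set. Its region of 421 bp scored 412 (chr5:137645050-137645470) and began 244 bases downstream of the start of a gene of only 2.68 kb. That score stood at percentile 99.0 of the absolute scores of all regions from 250 to 499 bp wide. Irs1, the main substrate in many insulin-responsive cells, had 4 regions, all positive. Of these, 3 lay together within 1.87 kb, from 1773 to 3639 bases downstream of the start, with scores of 133, 335 and 160 in that order along the gene. The strongest was 728 bp wide (chr1:82288551-82289278), and its neighbours were 275 bp (chr1:82289392-82289666) and 384 bp (chr1:82287800-82288183). The fourth, 46.3 kb from the start, scored 47.6. Irs2, the third substrate gene, differed from both, with a negative region of score -91.0 at 4.23 kb from its start and a weak positive region (18.8) near its other end.

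The receptors themselves had regions of both signs. Igf1r, the IGF-1 receptor gene, spans 281 kb and had 5 regions, of which 4 had absolute scores between 20.4 and 49.9. The fifth was 534 bp wide with a score of -198 (chr7:68198218-68198751) and lay 246 kb from the start. Insr, the insulin receptor gene, had 3 weak regions with scores of -24.5, 32.1 and -36.8. Shc1, an adaptor that links these receptors to the Ras pathway, had 1 region (-25.3). Ptpn1, which encodes the phosphatase PTP1B that switches the insulin receptor off, also had 1 (-42.9). No region of Igf1r lay within 5 kb of its listed start.

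IGF-1 and the IGF binding proteins, which carry IGFs outside the cell and hold them from the receptor, had regions in 4 of 7 genes. The share over all protein-coding genes was 35.1%, and the median length of these 7 genes is 16.8 kb. None of their regions had an absolute score of 100 or more. Igf1 had no region, and the nearest lay 117.6 kb away. Igfbp7, an IGFBP-related secreted protein, had 4 regions, with scores of 77.2, -43.8, 23.6 and 24.9. Igfbp2 had 2 positive regions within 0.781 kb of each other, 1.68 and 2.36 kb downstream of the nearest listed start (72.6 and 53.6). Igfbp3 had 1 positive region 1.22 kb downstream of its start (68.4). Igfbp5 had 1 weak negative region of 52 bp beyond its downstream end (chr1:72857118-72857169), which also lies 4.64 kb from Igfbp2 and was counted for both (-22.6). Igfbp4 and Igfbp6 had none. Just inside the 5 kb limit of the count, the farthest region was this one at Igfbp2, and just outside it the nearest over all 37 genes were 5.14 kb from Pik3cd (score 110.1) and 5.49 kb from Irs3 (71.5). Of genes with no region, Slc2a4 had one 6.40 kb away (220.5) and Igfbp4 one 6.54 kb away (-83.2).

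PI3K and AKT genes had regions in 8 of 10 members, against 35.1% of all protein-coding genes. Their median length is 75.4 kb, and 60.7% of protein-coding genes from 50 to 100 kb have a region. Pik3r1 led the class. It had 11 regions, 10 negative and 1 positive, over 80.5 kb of an 87.5 kb gene. Of protein-coding genes of all lengths, 1.11% had as many. Of the 11 regions 5 had an absolute score of 100 or more. Besides the -308 at the inner start, these were a region of 411 bp with a score of -221 at 10.2 kb from the first start (chr13:101757823-101758233), 384 bp with -114 at 76.9 kb (chr13:101691097-101691480) and 215 bp with -107 at 31.4 kb (chr13:101736682-101736896). The positive region, of 230 bp, scored 118 at 37.7 kb (chr13:101730370-101730599). The related regulatory subunit genes had fewer regions. Pik3r3, of 81.7 kb, had 2 negative regions side by side (-49.4 and -24.8). Pik3r2 had none, with the nearest 87.7 kb away. It is 8.54 kb long, a length at which 19.2% of protein-coding genes have a region.

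**Figure D3:**
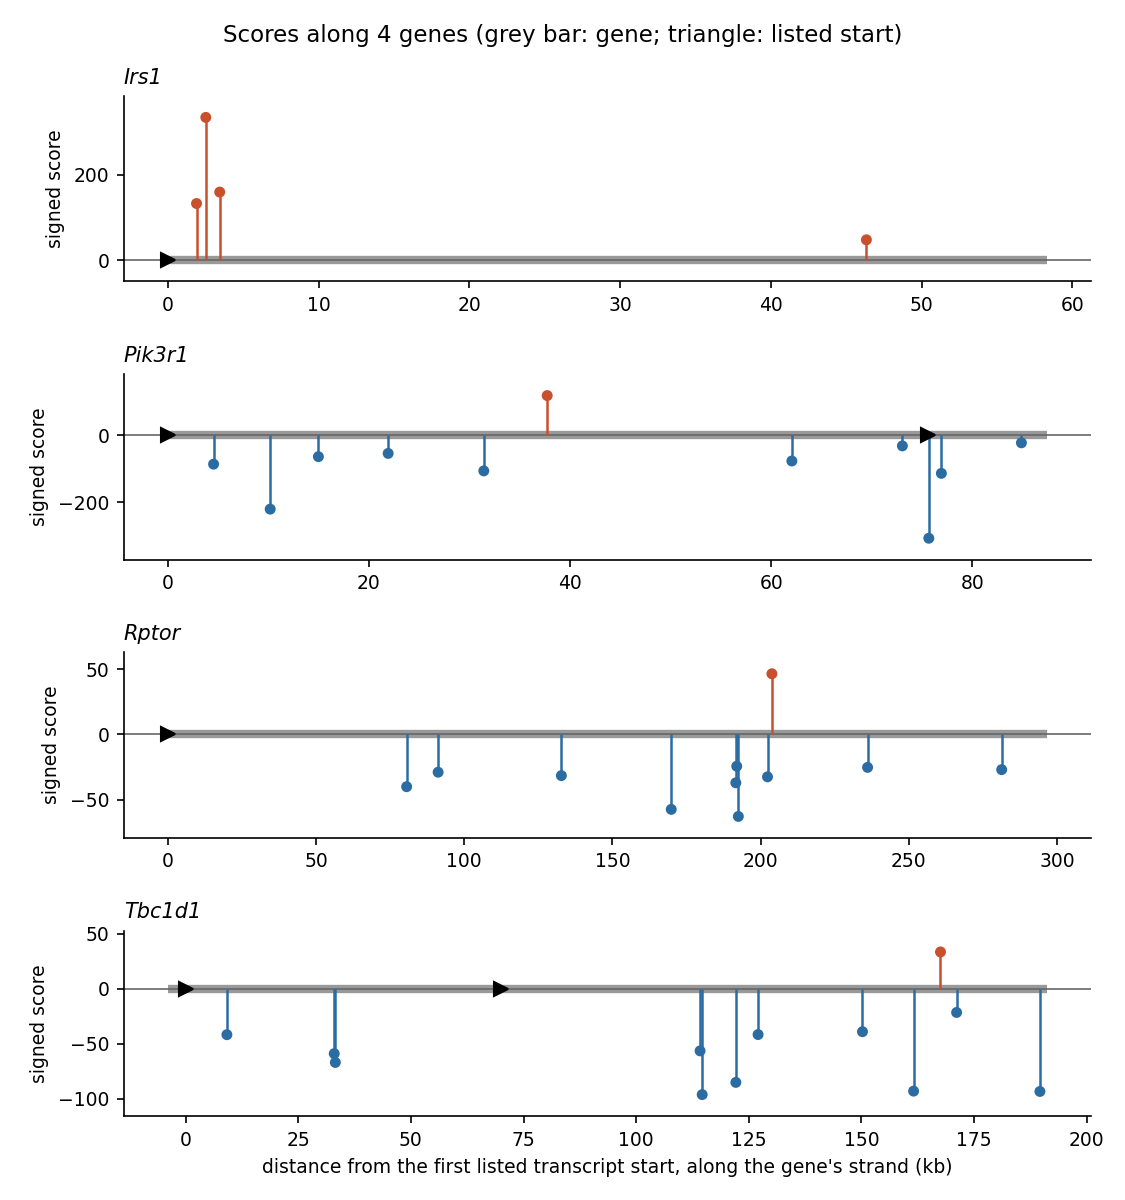
Signed score of each region (vertical axis, no unit) against the distance of its midpoint from the first listed transcript start in kb, along the strand, for Irs1, Pik3r1, Rptor and Tbc1d1; grey bars are genes and triangles listed starts. Positive points crowd near the start of Irs1, whereas the regions of Rptor begin 80.5 kb into the gene and negative points run over most of Pik3r1 and Tbc1d1.

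Among the catalytic subunit genes, Pik3cb stood out by its start region, and its other 2 regions had smaller scores (60.6 and -39.2). The -39.2 region lies 3.62 kb beyond the gene's downstream end, inside the annotated gene Gm1123. Pik3cd, the p110δ gene known best from leukocytes, had 4 regions of both signs. The positive ones scored 108 (129 bp, chr4:149662177-149662305) at 1.01 kb and 64.1 at 3.38 kb downstream of its innermost listed start, and the negative ones -63.8 and -127. The last, of 185 bp (chr4:149648686-149648870), lies 0.298 kb beyond the gene's downstream end, inside the neighbouring gene Clstn1. Pik3ca, which encodes the p110α through which insulin mainly signals, had 3 weaker regions (20.6, -25.3 and -57.3). Among the kinases downstream, Akt1 had 3 regions (-63.8, 39.8 and -40.7) in a gene of 21.1 kb, Akt2, the AKT gene linked most closely to glucose uptake, had 1 (-37.6), and Gsk3b, a kinase that AKT inhibits, had 1 (-65.7). Pdpk1, which encodes PDK1, had none.

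Regions were listed for 5 of 9 mTOR genes (55.6%), against 35.1% of all protein-coding genes. The genes that gate mTOR complex 1, Tsc1, Tsc2 and Rheb, had no region, nor had Eif4ebp1, whose product holds back translation until mTOR phosphorylates it. Their nearest regions were 15.6, 132.5, 45.1 and 33.5 kb away, in that order. These genes are 50.2, 36.9, 39.5 and 15.3 kb long. At these lengths 60.7%, 40.9%, 40.9% and 19.2% of protein-coding genes have a region. The other 5 had regions. Among mTOR genes outside the set, the subunit genes Mlst8 and Akt1s1 and the second S6 kinase gene, Rps6kb2, had none. Rps6kb1, which encodes S6 kinase 1, had a single region of 1108 bp with the most negative score of the set, -319, inside the gene 24.3 kb from its start (chr11:86519446-86520553). Rictor, the subunit that defines mTOR complex 2, had 5 regions. The strongest, of 115 bp, began 449 bases downstream of the start and scored -130 (chr15:6708830-6708944), at percentile 97.5 among regions of like width. The other 4 Rictor regions scored between -34.7 and 40.7.

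Rptor, the subunit that defines mTOR complex 1, had 11 regions, 10 of them negative, none with an absolute score above 62.8. They began 80.5 kb from the start and spread over 200.9 kb, with 3 negative regions inside 1.04 kb. Mtor itself had 2 weak regions of opposite sign (32.3 and -32.6). Deptor, which encodes an inhibitor of both complexes, had 3 (37.7, -33.4 and 44.5). Rptor is the longest gene of the set at 297 kb, and its 3.59 regions per 100 kb were fewer than the 11.3 of Pik3r1 and the 5.85 of Tbc1d1.

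Slc2a4, the gene of the insulin-responsive transporter GLUT4, and Slc2a1, the gene of the basal transporter GLUT1, had no region. They are short, at 5.93 and 28.6 kb, lengths at which 19.2% and 40.9% of protein-coding genes have one, and 81.0% do at the lengths of the 2 regulator genes that follow. Tbc1d1 and Tbc1d4 encode related Rab GTPase-activating proteins that keep GLUT4 inside the cell until AKT or AMPK phosphorylates them. Tbc1d1 had 12 regions, the most of the set, 11 negative with scores from -21.6 to -96.4 and 1 positive (33.5). Along the strand, the first 9 were all negative and began 9.11 kb from the first listed start. Of protein-coding genes of all lengths, 0.927% had 12 or more regions. Tbc1d4, a gene of similar length (167 and 195 kb), had 4 regions, 3 negative (-25.4, -94.7 and -29.6) and 1 positive (75.4).

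Pik3r1, Rptor and Tbc1d1 had 10 or more regions each, as 1.38% of protein-coding genes of all lengths do. They are 87.5, 297 and 195 kb long, and the share among genes of like length was not computed. These 3 genes were singled out after their counts were seen. They held 34 of the 91 regions, 31 of them negative (91.2%). The other 34 genes of the set had 57 regions, 31 negative and 26 positive (54.4% negative, exact interval 40.7 to 67.6), and 23.5 regions per Mb. The difference in sign between the 3 genes and the others was not tested.

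Regions at the set lay mainly away from gene ends and starts. Of 92 pairs of a gene and a region, 88 lay inside the gene. A gene end, taken as 2000 bp outside to 500 bp inside either end, held a region in 5 genes (Irs3, Igfbp5, Pik3cb, Pik3cd and Rictor), where 6.77% of all protein-coding genes have one. Starts are listed for 33 of the 37 genes, and 4 of 86 pairs (4.65%) lay within 1 kb of one, against 4.40% for all protein-coding genes. These 4 were at Irs3, Pik3cb, Pik3r1 and Rictor, and each had an absolute score above 100. Within 5 kb the share was 25.6%, against 17.6%. Whether the inner regions are exonic or intronic was not analysed here, because the gene table gives no exons.

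Scores grow with width in this list, so a large score need not mean a large methylation difference. At like width, Pik3cb stood highest. Its score of -278 over 149 bp was at percentile 99.9 of the absolute scores of regions from 100 to 149 bp, whose median was 53.0. Other large scores stood lower in their own width classes. The -308 and -114 at Pik3r1 were at percentiles 81.4 and 55.1, and the -198 at Igf1r was at 60.1. The 335 and 133 at Irs1 were at 84.9 and 64.9. The 2 widest regions of the set were far apart. The region of 1052 bp at Pik3r3 scored -49.4, whereas that of 1108 bp at Rps6kb1 scored -319, and the median over the 66 regions of 1000 bp or more was 394.

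**Figure D4:**
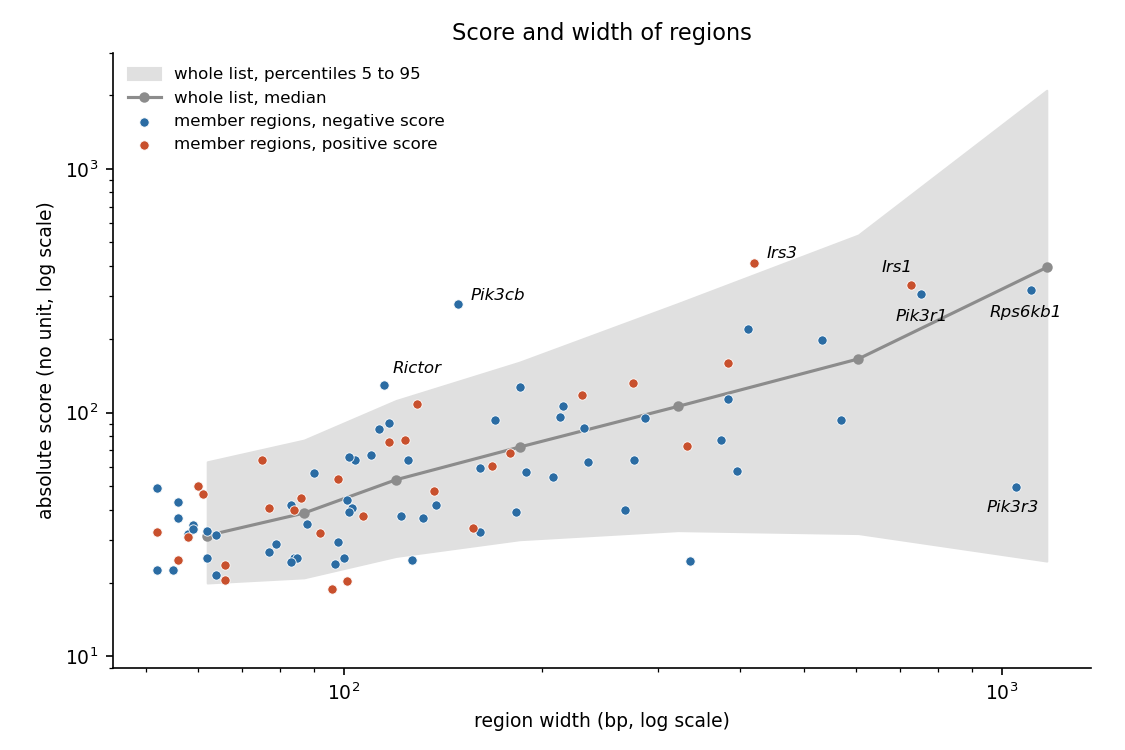
Absolute score (log scale, no unit) against width in bp (log scale) for the 91 regions of the set, coloured by sign; the grey line and band are the median and the percentiles 5 to 95 of the whole list by width class, drawn at each class's median width. Pik3cb, Irs3 and Rictor lie above the band, and Pik3r3 lies in its lower part.

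A further 93 genes of the same pathway, chosen by role with earlier results of these data known, had regions in 52 genes (55.9%, against 35.1% of all protein-coding genes). Their median length is 39.2 kb, and 40.9% of protein-coding genes from 25 to 50 kb have a region. Per length, these 93 genes had 18.5 regions per Mb, against 16.2 for all protein-coding genes. Of their 127 regions 79 were negative (62.2%, against 67.4% of the whole list). The FOXO genes, transcription factors that AKT keeps out of the nucleus, had regions in 3 of 4 genes. Their median length is 51 kb, where 60.7% of protein-coding genes have a region. All 11 regions were negative, as are 67.4% of the whole list, but most lay in 1 gene. Foxo3 held 9 of them, the strongest of 709 bp with a score of -277, and Foxo1 and Foxo4 held 1 each (-56.1 and -75.6), while Foxo6 had none. Adaptors and negative regulators of the receptors had regions in 13 of 16 genes (81.2%). Their median length is 89 kb, and 60.7% of protein-coding genes from 50 to 100 kb have a region. Of these 33 regions 25 were negative (75.8%, exact interval 57.7 to 88.9, which includes the 67.4% of the whole list). Among them Gab1 (-144), Ptpn11 (-137), Sos2 (-106) and Ptprf (112) passed an absolute score of 100.

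Ligand and receptor genes in this wider list had regions in 5 of 11 (45.5%, against 35.1% of all protein-coding genes). Their median length is 16 kb, and 19.2% of protein-coding genes under 25 kb have a region. Insrr, a receptor related to the insulin receptor, had 4 regions, all positive (strongest 135), whereas Ins1 and Enpp1 had 1 negative region each (-199 and -125). Of the other PI3K and AKT genes 10 of 20 had regions, the strongest at Pik3c3 (-252), Trib1 (196), Sgk1 (145), Sgk3 (-126) and Phlpp1 (106). Further mTOR genes had regions in 16 of 33 (48.5%, median length 19.8 kb, where 19.2% of protein-coding genes have one). Among them Nprl3 (-146), Prr5l (-122), Lpin1 (-111) and Prr5 (103) were above an absolute score of 100. Glucose uptake genes had regions in 5 of 9 (55.6%, median length 58.9 kb, where 60.7% of protein-coding genes have one), none above 100.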

How the data were processed

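A signed score per region was read from the list that the authors deposited for 1 PDGFRα+ library set against 1 CD137+ library. The submitters' processing notes name mm10 as the build. The aligner, region caller, thresholds, filters and coverage were, for this series, not given in the sources used here. A caller's limits on coverage and width decide which sites can appear, and the score grows with width.

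Genes and starts came from RefSeq tables of GRCm38.p6; all 37 symbols matched, and 33 had a listed start. A region was counted for a gene if it shared at least 1 base with the gene or its 5 kb flanks. Members, role classes and lists were chosen with earlier results of these data known. Every member is named, with positions for regions of absolute score 100 or more and for the strongest region of members with a region at a gene end. Other pathway genes are named from an absolute score of 100, except 1 that is not reported here; Foxo1, Foxo4, Foxo6, Mlst8, Akt1s1 and Rps6kb2 were added after their values were seen. With 1 library per group no test was run. Alternatives changed the flank, score, width and gene assignment. Python 3.11.15, pandas 2.3.3 and scipy 1.17.1 were used, and the overlap counting was tested on simulated regions.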

Additional observations from a re-analysis of the deposited data

How the results depend on the processing

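The number of genes with a region (26) was 25 with gene bodies alone, 34 with 50 kb on both sides, 22 with regions at least 100 bp wide and 26 when each region went to its nearest protein-coding gene. It was 8 with only regions of absolute score 100 or more and 5 at gene ends alone, where 10.8% and 6.77% of all protein-coding genes have such a region. For the other settings no share over all protein-coding genes is given, so those counts, also by class, cannot be set against a background. By class, the score limit left 3 receptor and substrate genes, 0 IGF and binding protein genes, 3 PI3K and AKT genes, 2 mTOR genes and 0 glucose transport genes; gene ends alone left 1, 1, 2, 1 and 0 in that order; and 50 kb on both sides raised the mTOR genes to 8 and the glucose transport genes to 4. The number of regions (91) was 158 with 50 kb, 55 at a width of 100 bp or more, 15 at the score limit, 5 at gene ends and 57 without Pik3r1, Rptor and Tbc1d1, an alternative chosen after seeing the data. The negative share (68.1%) was 80.0% at gene ends (4 of 5 regions) and 54.4% without those 3 genes, and between 60.0% and 72.7% under the 6 other settings. Each alternative counts a narrower or wider part of the same list, and coverage limits every count by an unknown amount. No paired analysis was possible because each group has 1 library.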
